A study of Mus musculus with 12 samples.

Results

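The Git1 gene and its partners in the PIX-PAK-Rac pathway are 9 genes: Git1 and its paralogue Git2, the PIX exchange factors Arhgef6 and Arhgef7, the kinases Pak1, Pak2 and Pak3, and the GTPases Rac1 and Rac3. Each was found by its symbol as 1 row among the 17202 genes listed for mouse cortex, and all 9 passed the filter on low values that left 17111 genes for testing. Git1 was chosen by its higher normalized counts in vehicle-treated CD mice than in vehicle-treated WT mice, so its values in vehicle-treated mice are given as a description with no test. The 8 partners were taken for their place in the pathway.

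RNA from the cortex of 12 male mice was sequenced, 3 in each of 4 groups. CD mice carry a heterozygous deletion from Gtf2i to Fkbp6 on chromosome 5 in all their cells, as a model of Williams–Beuren syndrome, and WT mice carry both copies. The groups are VEH-WT and VEH-CD, which the labels call untreated and for which the study's methods give drinking water with DMSO, and VERCUR-WT and VERCUR-CD, which drank verapamil, a calcium channel blocker, together with curcumin, the yellow polyphenol of turmeric. The labels give 10 mg/kg/day of verapamil and 60 mg/kg/day of curcumin from 8 weeks of age, and an age of 16 weeks at dissection in every group. The study's methods give a lower verapamil dose and a younger age at the end. All mice were of the strain C57Bl6 per the labels, and the CD line had been crossed with a Thy1-YFP reporter of pyramidal neurons. The labels name the tissue as cortex and the study's methods as frontal cortex, and cell types were not separated. Nothing in the labels ties mice to litters or cages. By the study's methods, treatment was given in the drinking water of cages that held several animals, so mice of a group may have shared a cage. The p-values measure the spread between these 12 mice and take the mice as independent.

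GIT proteins are scaffolds that also switch off ARF GTPases, among them ARF6. They bind tightly to the PIX proteins, which load Rac1 and Cdc42 with GTP and carry a docking site for PAK kinases. PAKs are switched on by GTP-bound Rac and Cdc42 and phosphorylate LIM kinases, which in turn inhibit the actin-severing protein cofilin. In cortical neurons these proteins gather at synapses, where they act on the actin of dendritic spines and on presynaptic vesicle release.

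Git1 (ENSMUSG00000011877.13) lies on the plus strand of chromosome 11, from 77493562 to 77507786 in GRCm38, and is the gene on which the results turn. RefSeq gives 2 promoter windows for it, whose starts both lie before the gene start just given. The more upstream of the 2, the 250 bases before its RefSeq start at chr11:77493038-77493287 in GRCm38.p6, is shown on the coding strand because no annotated gene covers it. The capitals mark 1 CCAAT box (CCAAT) and 2 GC boxes (GGGCGG or its reverse complement CCGCCC).

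Git1: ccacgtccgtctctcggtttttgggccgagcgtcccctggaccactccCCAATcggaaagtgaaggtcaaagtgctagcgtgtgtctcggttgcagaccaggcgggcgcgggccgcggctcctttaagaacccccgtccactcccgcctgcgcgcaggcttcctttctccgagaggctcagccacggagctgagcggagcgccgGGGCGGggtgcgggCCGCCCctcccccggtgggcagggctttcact

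This window holds 26 CpG sites and 68.8% G and C, higher than in 89.0% of the 32851 promoters of that length. Of those promoters, 32.7% hold a GC box and 33.8% a CCAAT box on either strand. An E-box (CACGTG) and a CRE (TGACGTCA), which 6.02% and 1.55% of promoters hold, were not among these letters. RefSeq promoters were matched for 7 of the 9 genes, and the most upstream window of each was used. That of Arhgef7 was the richest in G and C, at 78.0% with 5 GC boxes, and that of Arhgef6 the poorest, at 49.6% with none. The promoter of Pak1 held 4 GC boxes, 1 E-box and 2 CREs.

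The 12 libraries held between 40290000 and 56480000 counted reads, which follow from the smallest step of the values in each library. The median of 19 deleted genes, relative to VEH-WT, was 0.959 to 1.04 in the 6 WT mice and 0.468 to 0.530 in the 6 CD mice, so every library matched its genotype label. Markers of excitatory neurons summed to between 277795 and 348916 normalized counts, and none of the markers of the 11 lists examined was at 0 in any mouse, those of striatum, meninges and choroid plexus included. Some of these lists varied several-fold between mice of 1 group. Striatal markers summed to 5395 to 25455 in VERCUR-WT and 5739 to 18977 in VERCUR-CD, and oligodendrocyte markers to 67424 to 177355 and 103705 to 149176.

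Git1 stood at 31022, 29102 and 29731 normalized counts in the VEH-WT mice and at 43760.0, 40368 and 43545 in the VEH-CD mice. In the VERCUR-WT mice it stood at 28541, 30186 and 31419, and in the VERCUR-CD mice at 41295, 40226 and 42569.6. All 6 CD mice lay above all 6 WT mice, and the highest WT mouse and the lowest CD mouse were both co-treated. Such a separation of genotypes occurred in 1.05% of all genes tested, and for Git1 it includes the mice in which the gene was noticed.

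**Figure D1:**
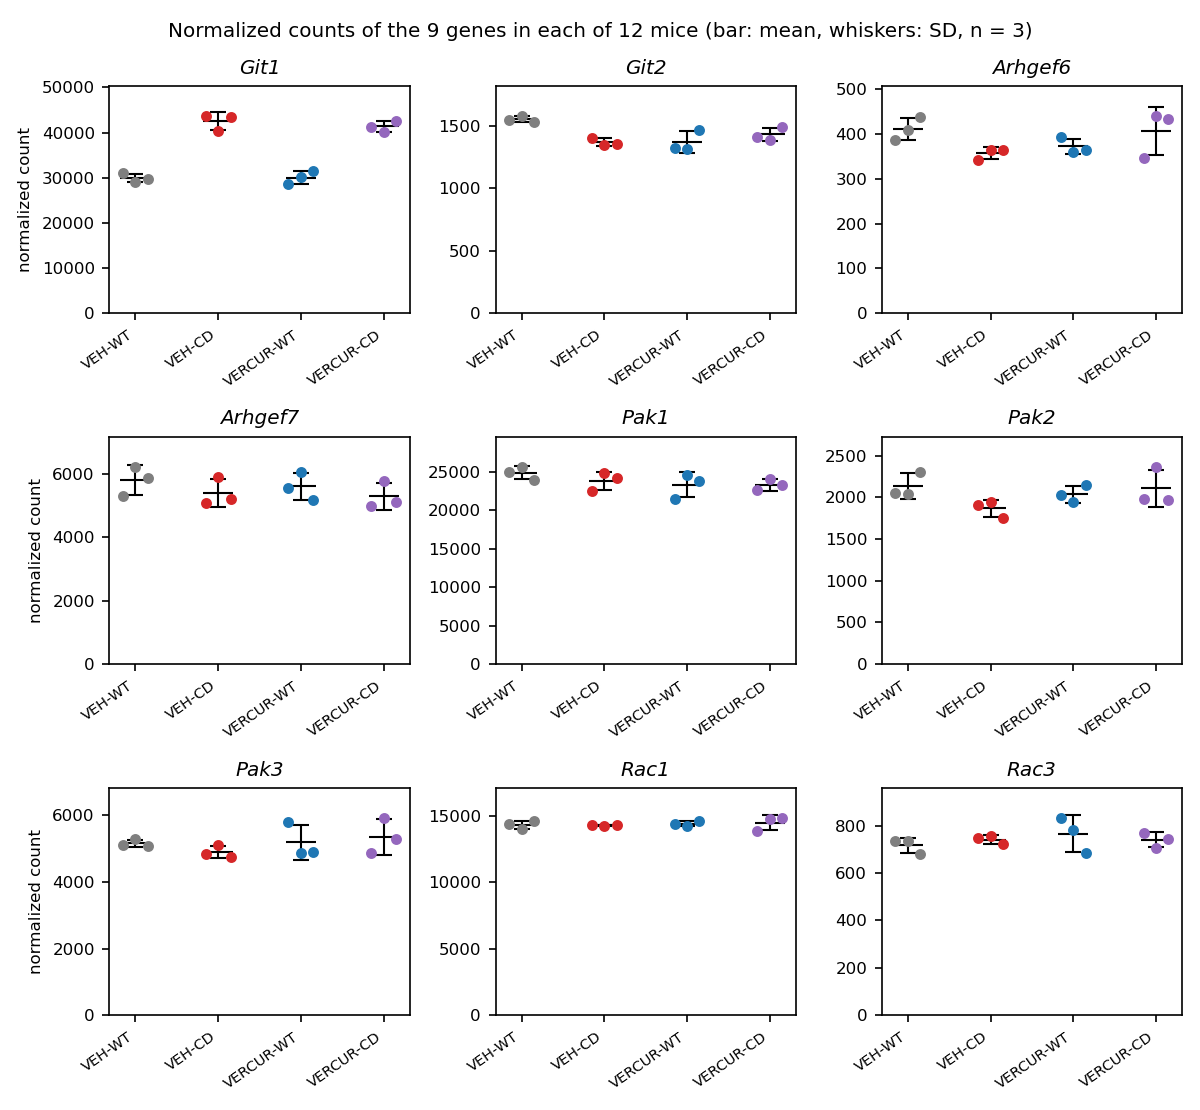
Normalized counts (vertical axes from 0) of the 9 genes in the 4 groups; each point is 1 mouse, the bar is the mean and the whiskers the SD of 3 mice. Git1 lies between 28541 and 31419 in WT mice and between 40226 and 43760.0 in CD mice, and Rac1 stays between 13846 and 14879 in all 12 mice.

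The group means of Git1 were 29952 ± 979 in VEH-WT, 42557 ± 1900 in VEH-CD, 30048 ± 1444 in VERCUR-WT and 41364 ± 1173 in VERCUR-CD (SD, n = 3 mice each). VEH-CD mice were at 142% and VERCUR-CD mice at 138% of the VEH-WT mean. The vehicle comparison, which led to the choice of this gene, gave a log2 fold change of 0.51 ± 0.05 (SE), described here with no test. In bulk cortex, a higher level per cell and a larger share of cells that express the gene cannot be told apart.

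The comparison of VERCUR-CD with VERCUR-WT asks whether the genotype difference was present outside the vehicle-treated mice in which Git1 was noticed. It is not a separate test, because the fit takes its spread from the vehicle-treated mice too. Earlier results of these data were also known when the genes were chosen. The genotype difference was 0.46 ± 0.05 on the log2 scale (SE), a 1.38-fold higher level with a 95% interval of 1.27 to 1.5. In this fit it passed the threshold (limma, Benjamini-Hochberg adjusted p = 0.00145). A gene was called when its adjusted p was under 0.05 and its level was higher or lower by more than 25%, the thresholds of the study. Git1 was the 1 gene of the 9 called in this comparison, in which 0.146% of all genes tested were called and 0.0234% called higher. The 3 mice of each group did not overlap, as in 7.74% of all genes tested. A fit of the 6 co-treated mice alone gave the same log2 value, 0.462, and an adjusted p of 0.0706 in limma. No gene of the 9 was then called, so Git1 was not called without the vehicle-treated mice in the fit. Among the 11 marker lists, 10 had summed levels that overlapped between these 2 groups. The exception was the microglia list, with 6 of 6 markers detected, at 17952 to 19429 in VERCUR-WT and 19463 to 20812 in VERCUR-CD, where 4 of the 6 markers had a log2 value above 0 and their median was 0.09. Larger medians were found in lists whose sums overlapped, at 0.23 for oligodendrocytes (5 of 5 markers above 0), -0.21 for striatal neurons and -0.20 for meningeal fibroblasts (1 of 5 above 0 in each). No marker of the 11 lists had an adjusted p under 0.05 in this comparison (limma). The part of these cell types in the Git1 difference was not tested.

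Co-treatment was compared within each genotype to see whether it moved these genes. For Git1, VERCUR-CD differed from VEH-CD by -0.04 on the log2 scale, with a 95% interval from -0.16 to 0.08. VERCUR-WT differed from VEH-WT by 0.00, with an interval from -0.12 to 0.12. The genotype difference changed with treatment by -0.04, with an interval from -0.21 to 0.12. All 3 values use the vehicle-treated mice in which Git1 was noticed, so they are given without p-values. Against VEH-WT, the reference of the study, VERCUR-CD stood higher by 0.47 ± 0.05 (log2, SE), a contrast that shares its VEH-WT mice with the vehicle comparison. In this contrast the groups did not overlap for Git1 and Git2, and for 13.9% of all genes tested.

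**Figure D2:**
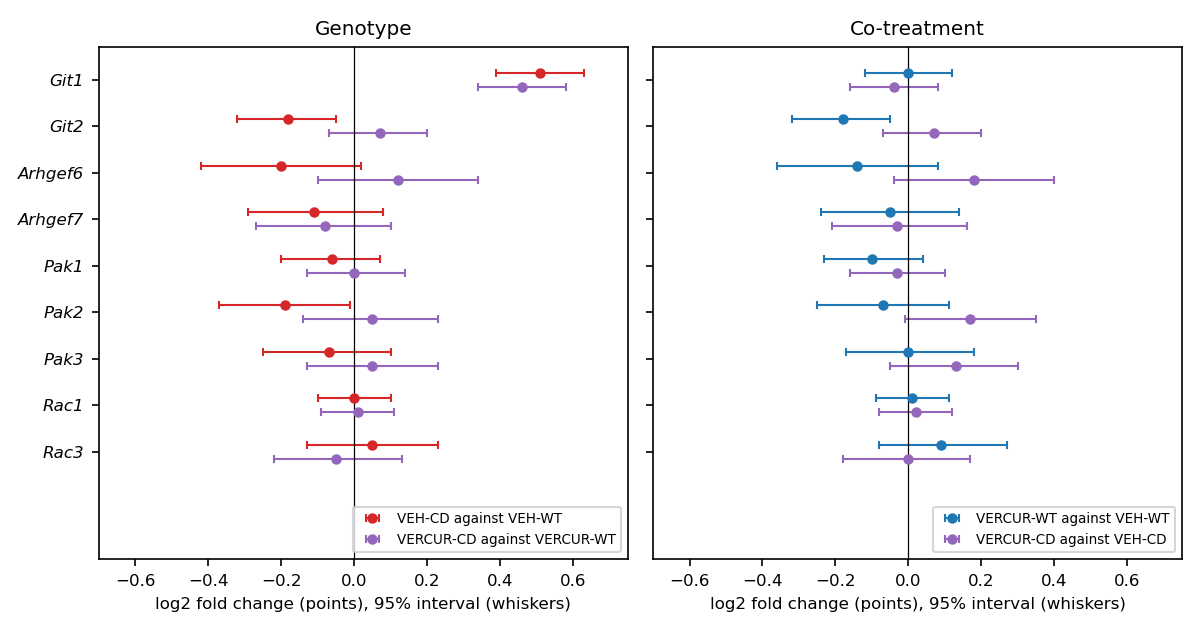
Log2 fold changes (points) with 95% intervals (whiskers) of the 9 genes, by genotype on the left and by co-treatment on the right; comparisons in the 2 panels share mice. Git1 lies at 0.51 and 0.46 for genotype and at 0.00 and -0.04 for co-treatment, and the log2 values of the other 8 genes run from -0.20 to 0.18.

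Git2 encodes the other GIT scaffold, whose product also binds PIX. It was at 1547, 1582 and 1532 normalized counts in VEH-WT and at 1403, 1345 and 1357 in VEH-CD. It was at 1325, 1313 and 1470.5 in VERCUR-WT and at 1413, 1390.3 and 1494 in VERCUR-CD. The 3 VEH-WT mice were the 3 highest of the 12, as in 1.43% of all genes tested. The other 3 groups overlapped. VERCUR-WT and VEH-WT alone did not overlap in 9.72% of genes.

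The vehicle comparison of Git2 had a log2 value of -0.18 ± 0.06 (SE), against 0.07 ± 0.06 in co-treated mice (limma, adjusted p = 1.0). VERCUR-WT differed from VEH-WT by -0.18 ± 0.06 (limma, unadjusted p = 0.0118, adjusted p = 0.944). The change of the genotype difference with treatment was 0.25 ± 0.09 (limma, unadjusted p = 0.0148, adjusted p = 0.816). None of these passed the threshold. Beside them, the 9 of 9 detected immediate early genes, which neuronal activity switches on, summed to 56323 to 94764 in VEH-WT and to 16027 to 53657 in the other 9 mice. The 5 of 5 detected interneuron markers summed to 36814 to 39787 in VEH-WT and to 32889 to 36271 in the other mice. The part of these marker levels in the Git2 values was not tested.

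Git2 lies on the minus strand of chromosome 5 (114727407 to 114775517), 19.5 Mb from the deleted genes, and its start overlaps that of Ankrd13a on the other strand. Ankrd13a, which encodes a ubiquitin-binding protein, had means of 1950.0 ± 219 in VEH-WT, 1646 ± 132 in VEH-CD, 1643 ± 271 in VERCUR-WT and 1628 ± 85.7 in VERCUR-CD (SD, n = 3). Its mean too was highest in VEH-WT. Strand use in the counting is not given in the sources used here, so reads from a shared stretch cannot be told apart. Of the stretches of 100 bases of Git2, 0.226% are also in transcripts of other genes. The part of such reads in the Git2 values was not tested.

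The PIX genes did not pass the threshold in any comparison tested. Arhgef6 encodes alphaPIX and lies on the X chromosome. It was at 388, 409.9 and 438 normalized counts in VEH-WT and at 342, 366 and 364 in VEH-CD, which did not overlap, as in 20.6% of all genes tested. It was at 393, 361 and 364 in VERCUR-WT and at 346, 442 and 435 in VERCUR-CD. The VERCUR-CD mice held both a low value and the highest of the 12.

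For Arhgef6 the genotype difference was -0.20 ± 0.10 (log2, SE) in vehicle-treated mice, given with no test. In co-treated mice it was 0.12 ± 0.10 (limma, adjusted p = 1.0). The difference between them, 0.33 ± 0.14, had an unadjusted p of 0.042 and an adjusted p of 0.816 in limma.

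Arhgef7 encodes betaPIX, the more abundant PIX of this tissue. It ranged from 5307 to 6218 in VEH-WT, from 5066 to 5899 in VEH-CD, from 5181 to 6052 in VERCUR-WT and from 4978 to 5765 in VERCUR-CD. The 4 groups overlapped. Its genotype difference was -0.11 ± 0.09 in vehicle-treated mice and -0.08 ± 0.09 in co-treated mice (log2, SE; limma, adjusted p = 1.0 for the latter, 95% interval -0.27 to 0.10).

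Of the PAK genes, Pak1 encodes the group I PAK with the highest level here. It was at 25034, 25678 and 23967 in VEH-WT, at 22497, 24803 and 24189.7 in VEH-CD, at 21523, 24639 and 23771 in VERCUR-WT and at 22604, 24089 and 23250.0 in VERCUR-CD. These groups overlapped. Its genotype difference was -0.06 ± 0.06 in vehicle-treated and 0.00 ± 0.06 in co-treated mice (log2, SE), with a 95% interval of -0.13 to 0.14 in the latter.

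Pak2 is the PAK found in most tissues. It was at 2055, 2043 and 2312 in VEH-WT, at 1908, 1949 and 1758 in VEH-CD, at 2027, 1941 and 2148 in VERCUR-WT and at 1986, 2371 and 1975 in VERCUR-CD. The VEH-CD mice lay below the VEH-WT mice and below the VERCUR-CD mice, and overlapped with VERCUR-WT. Groups did not overlap in 20.6% of all genes tested in the vehicle comparison and in 8.34% in VERCUR-CD against VEH-CD. The latter difference in Pak2 was 0.17 ± 0.08 on the log2 scale and did not pass the threshold (limma, adjusted p = 0.867). The genotype difference of Pak2 was -0.19 ± 0.08 in vehicle-treated mice, with no test, and 0.05 ± 0.08 in co-treated mice (limma, adjusted p = 1.0).

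Pak3, an X-linked gene whose human counterpart is known for its link to intellectual disability, ranged from 4756 to 5935 normalized counts over the 12 mice. The VEH-CD mouse at 4756 was the lowest and the VERCUR-CD mouse at 5935, numbered 2, the highest. The same VERCUR-CD mouse was also the highest of the 12 in Arhgef6 and Pak2. Its log2 values correlated with those of VERCUR-CD mouse 1 at 0.9856, the lowest of the pairs within a group. Its genotype difference in co-treated mice was 0.05 ± 0.08 (log2, SE), with a 95% interval of -0.13 to 0.23.

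Rac1, the GTPase that PIX proteins activate and that PAKs respond to, varied least of the 9 genes. It ranged from 13846 to 14879 over the 12 mice, a ratio of 1.07, and its pooled SD within groups was 0.034 on the log2 scale. Its genotype difference in co-treated mice was 0.01 ± 0.05, with a 95% interval of -0.09 to 0.11. Rac1 lies on the minus strand of chromosome 5, 8.3 Mb from the deleted genes, and its 3′ end overlaps the transcript of Daglb on the other strand. Of its stretches of 100 bases, 49.2% are also in a Daglb transcript, so reads there cannot be told apart without strand. The same measure was 0% for Git1, Arhgef6, Pak1, Pak3 and Rac3 and at most 0.672% for the remaining genes, and no 2 of the 9 genes shared such a stretch.

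Rac3, the Rac GTPase expressed mainly in neurons, ranged from 679 to 834 over the 12 mice. The VERCUR-WT mice held the highest value, and all groups overlapped. Its genotype difference was -0.05 ± 0.08 in co-treated mice (log2, SE), with a 95% interval of -0.22 to 0.13.

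Over the 9 genes, 1 was called in VERCUR-CD against VEH-WT, where 0.199% of all genes tested were called, and 1 in VEH-CD against VEH-WT, where 0.257% were. In each of the 2, 0.0526% of genes were called higher, and in the latter 0.205% were called lower. Both were Git1, and since both contrasts use mice in which Git1 was noticed, these 2 calls follow from its choice and are no test of it. None of the 9 was called in VERCUR-CD against VEH-CD, in VERCUR-WT against VEH-WT or in the interaction of genotype and treatment. In these comparisons limma called 0 of 17111 genes (0.0%), while 605, 893 and 1035 genes had an unadjusted p under 0.05.

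Levels of different genes were compared per kilobase of merged exons. In VEH-WT mice Pak1 was at 6313 ± 219 and Git1 at 6191 ± 202 normalized counts per kb, which did not differ beyond their spread (SD, n = 3). Rac1 followed at 3187 ± 70.4. Rac3 at 554 ± 25.5 and Pak3 at 540 ± 12.2 did not differ beyond their spread either.

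Below them came Arhgef7 at 368 ± 29.1 and Pak2 at 314 ± 22.4 normalized counts per kb, whose mice overlapped, then Git2 at 89.5 ± 1.47 and Arhgef6 at 48.2 ± 2.94. In VEH-CD mice Git1 was at 8797 ± 393 and Pak1 at 6044 ± 303 per kb, and in VERCUR-CD mice at 8550.0 ± 242 and 5913 ± 189. In both CD groups Git1 therefore stood first beyond the spread. In VERCUR-WT mice Git1 at 6211 ± 298 and Pak1 at 5912 ± 408 did not differ beyond their spread. Merged exons overstate the transcript where a gene has long alternative exons. With the length of the principal transcript, chosen after seeing the data, Arhgef7 in VEH-WT was at 1302 ± 103 and Git2 at 521 ± 8.53. Arhgef7 then ranked above Rac3, and Git2 above Pak2. Rac3 at 666 ± 30.7 and Pak3 at 599 ± 13.5 in VEH-WT no longer overlapped. By this length the mean of Git1 was the highest in all 4 groups. It was at 8528 ± 279 against 8122 ± 282 for Pak1 in VEH-WT, where mice overlapped. In VERCUR-WT it was at 8556 ± 411 against 7606 ± 525, with no overlap.

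**Figure D3:**
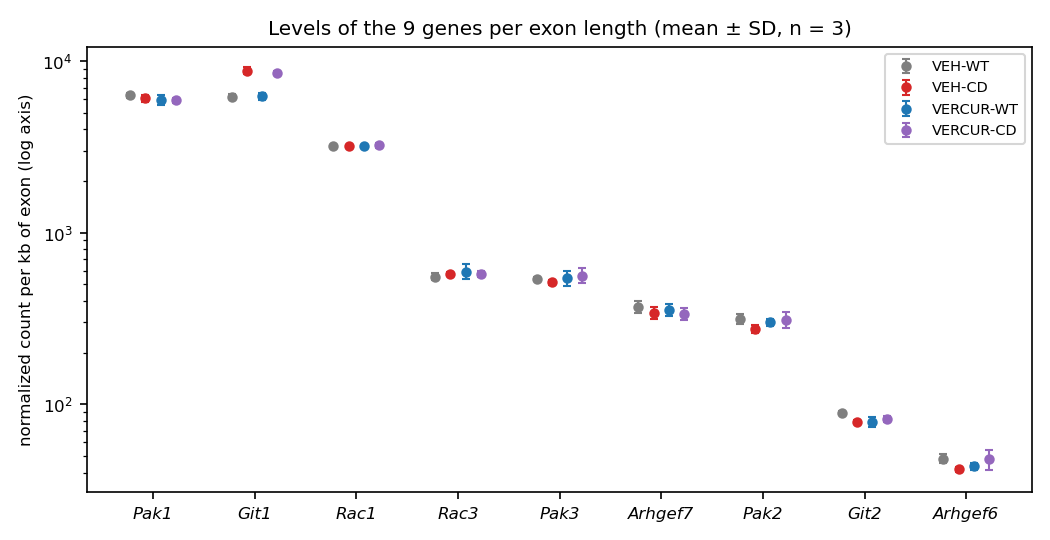
Normalized counts per kb of merged exons (log axis) of the 9 genes, ordered by their VEH-WT mean; points are means and whiskers SDs of 3 mice. Pak1 at 6313 and Git1 at 6191 lie together in VEH-WT, and Git1 stands at 8797 and 8550.0 in the 2 CD groups.

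Ratios per length of principal transcript set Git1 against its binding partners within each mouse. Git1 over Git2 was 15.6 to 19.5 in the 6 WT mice and 24.2 to 27.3 in the 6 CD mice. Git1 over Arhgef7 was 5.93 to 7.69 in WT and 8.67 to 10.9 in CD mice. Git1 over Pak1 was 0.989 to 1.16 in WT and 1.42 to 1.70 in CD mice. Each of these ratios separated the genotypes, as Git1 alone did. They all hold Git1 and include the mice in which it was noticed, so they are no further test of it. Git1 made up 93.99% to 95.13% of the summed GIT transcripts in WT mice and 96.03% to 96.46% in CD mice. By merged exons, the planned length, its share was 98.51% to 98.8% in WT and 99.03% to 99.14% in CD mice.

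Pairs that do not contain Git1 overlapped between genotypes. Arhgef7 over Arhgef6 was 13.7 to 17.2 in WT and 12.1 to 16.6 in CD mice. Rac1 over Rac3 was 4.47 to 5.57 in WT and 4.66 to 5.39 in CD mice. Pak1 over Pak3 was 10.4 to 14.3 in WT and 11.4 to 14.3 in CD mice.

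The genes on either side of Git1 were examined to see whether its stretch of chromosome 11 differed as a whole. Of 15 genes tested whose start lies within 500 kb of the start of Git1, 0 were called in any comparison. Over all genes tested 0.257% were called in the vehicle comparison and 0.146% in co-treated mice, so 0 of 15 says little. In VERCUR-CD against VERCUR-WT their median log2 value was 0.02, from -0.24 for Gm12346 to 0.28 for Pipox, against 0.46 for Git1. In limma 1 of them had an unadjusted p under 0.05, as had 4.1% of all genes tested. In the vehicle comparison the median was -0.06, from -0.42 for Nufip2 to 0.68 for 2210008F06Rik. There 3 of the 15 had an unadjusted p under 0.05 in limma, as had 11.8% of all genes tested.

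2210008F06Rik starts 3.7 kb before Git1 on the same strand. It was at 91.9, 70.4 and 68.7 normalized counts in VEH-WT and at 136, 98.9 and 137 in VEH-CD. These groups did not overlap, as in 20.6% of all genes tested. It was at 107, 87.1 and 92.3 in VERCUR-WT and at 107, 86.3 and 136 in VERCUR-CD, which overlapped. Its difference in the co-treated mice was 0.18 ± 0.19 (log2, SE; limma, adjusted p = 1.0).

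Ankrd13b, which encodes a ubiquitin-binding protein and starts 3.9 kb away on the other strand, differed by -0.10 ± 0.09 in co-treated mice. Trp53i13 and Abhd15, which start 22.4 and 21.6 kb away, differed by -0.17 ± 0.15 and -0.08 ± 0.27, and Coro6, a coronin of actin filaments 31.2 kb away, by -0.14 ± 0.14. The kinase gene Taok1 differed by 0.09 ± 0.13 and the slingshot phosphatase gene Ssh2, whose product reactivates cofilin, by 0.02 ± 0.10. None of these passed the threshold (limma, adjusted p = 1.0 each).

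**Figure D4:**
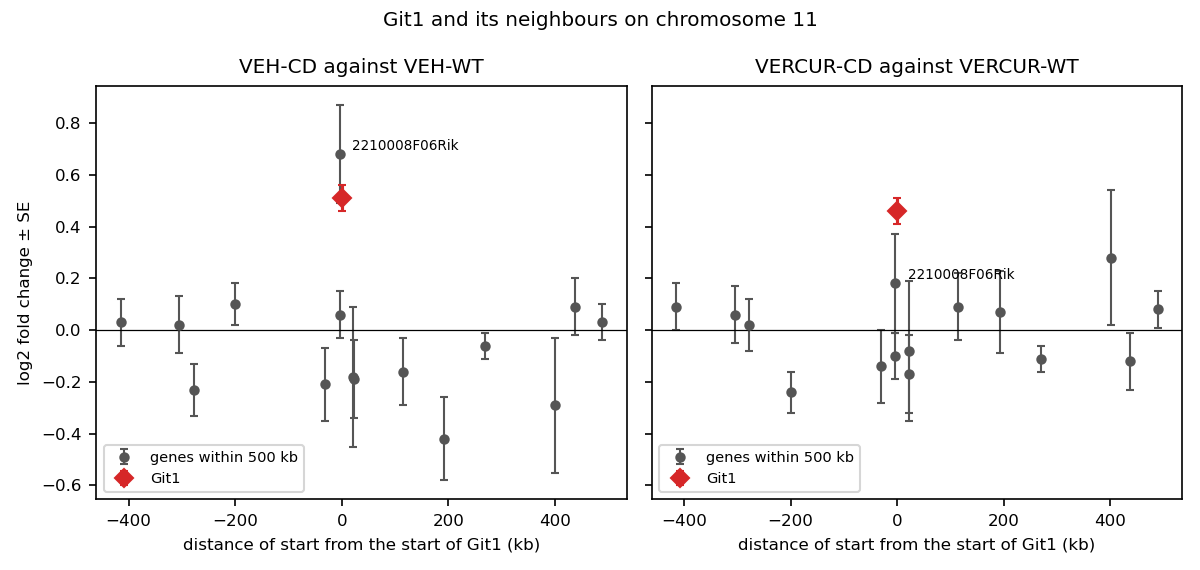
Log2 fold changes ± SE of Git1 (red diamond) and of 15 genes tested within 500 kb, by the distance of their start from the start of Git1 in kb. Git1 stands at 0.51 in vehicle-treated mice, where 2210008F06Rik stands at 0.68, and at 0.46 in co-treated mice, where the 15 neighbors lie between -0.24 and 0.28.

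Likeness to Git1 was measured as the Pearson correlation of log2 values over the 12 mice, which share their libraries and fall into the 2 genotypes, so it ranks genes by the genotype difference and is given with no test. The highest 5 were Trim50 (r = 0.977), Morf4l1 (0.976), Gm31166 (0.968), Uchl5 (0.966) and Hpf1 (0.966), on chromosomes 5, 9, 19, 1 and 8. Morf4l1, a chromatin gene, ranged from 18987 to 20293 normalized counts in WT and from 21480.0 to 22179 in CD mice. Trim50, a ubiquitin ligase gene on chromosome 5, which also carries the deletion, was listed at 0 to 1.85 in WT mice. In CD mice it was listed at 230.5 to 293.6. The lowest 5 were Baz1b (r = -0.995), Tbl2 (-0.985), Gtf2i (-0.984), Limk1 (-0.977) and Bud23 (-0.967), all among the deleted genes.

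The rest of the pathway was examined in 7 lists that hold 126 genes, of which 125 were tested. In VERCUR-CD against VERCUR-WT 0 were called higher and 1 lower, and the median log2 value was 0.007, against 0.004 over all genes tested. Of all genes tested 0.0234% were called higher and 0.123% lower, so a list with no call says little. The called gene was Limk1, the LIM kinase that PAKs phosphorylate and 1 of the 19 deleted genes. It was at 4119, 4319 and 4112 normalized counts in VERCUR-WT and at 1840.1, 1823 and 1716 in VERCUR-CD. Its difference was -1.22 ± 0.06 (log2, SE; limma, adjusted p = 4.44e-07), so that in the same CD mice Git1 stood higher and Limk1 lower than in WT mice.

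**Figure D5:**
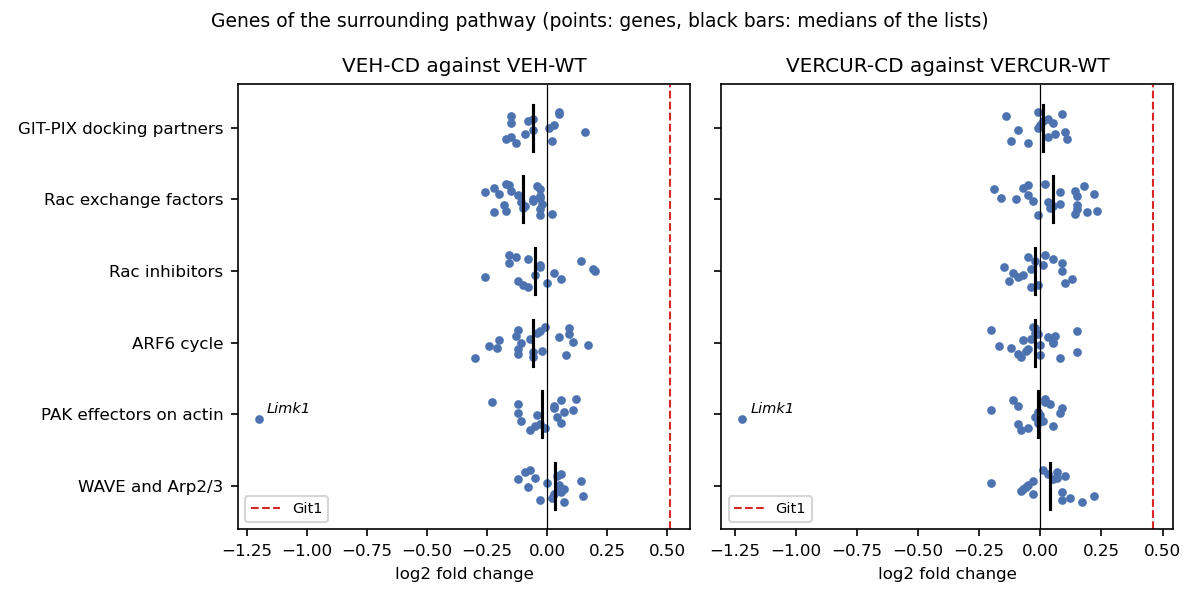
Log2 fold changes of the genes of 6 of the 7 pathway lists (points) with the median of each list (black bars); the red dashed line marks Git1. Limk1 lies at -1.20 and -1.22, and the list medians lie between -0.099 and 0.039 in vehicle-treated mice and between -0.023 and 0.046 in co-treated mice.

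None of the 15 docking partners of GIT and PIX was called in co-treated mice, where 0.146% of all genes tested were. The 2 with the smallest unadjusted p were the liprin Ppfia3, at 0.10 ± 0.06, and the adaptor Nck2, at -0.12 ± 0.08 (log2, SE, co-treated mice).

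Among the 23 Rac exchange factors, Tiam2 was at -0.19 ± 0.07 and Kalrn, which encodes a spine exchange factor, at 0.15 ± 0.07 in co-treated mice. The list lay below 0 in 22 of 23 genes in the vehicle comparison, with a median of -0.099, and in 8 of 23 in co-treated mice, with a median of 0.046. Over all genes tested, 8670 of 17111 lay below 0 in the former and 8276 in the latter. None of the exchange factors was called in either, where 0.257% and 0.146% of all genes tested were called. The vehicle comparison rests on the VEH-WT mice, whose summed immediate early genes and interneuron markers lay above those of the other 9 mice, and the part of this in the list's values was not tested.

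In co-treated mice, where 0.146% of all genes tested were called, none of the 17 Rac inhibitors was, with Bcr at -0.15 ± 0.09 and Arhgdia at -0.11 ± 0.07. Nor was any of the 22 genes tested of the ARF6 cycle, which GIT proteins act on, with Acap3 at -0.08 ± 0.05 and Asap1 at -0.12 ± 0.10. Besides Limk1, none of the 18 PAK effectors on actin was called, with Pdxp, a cofilin phosphatase gene, at -0.09 ± 0.05 and Cttn, which encodes cortactin, at -0.09 ± 0.06. Of the 18 genes of the WAVE and Arp2/3 complexes, through which Rac nucleates actin branches, Actr3 was at 0.22 ± 0.06 and Baiap2 at -0.20 ± 0.07. Actr3 had an unadjusted p of 0.00486 and an adjusted p of 0.773 in limma. It ranged from 8913 to 9757 normalized counts in WT and from 9957 to 11895 in CD mice of both treatments. Such a separation of genotypes occurred in 1.05% of all genes tested.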

How the data were processed

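Reads of 12 cortex libraries were aligned by the authors to GRCm38 with STAR 2.5.3a. The authors deposited normalized counts per gene and mouse, that is counts divided by 1 factor per library. The counting program, its use of strand and the annotation release are not given in the sources used here. In every library 100% of low values were whole multiples of 1 step, which gives the depth. Further deposited tables, which list genes selected by the authors as ratios to VEH-WT, were not used.

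The values were modeled as log2(normalized count + 1) with limma 3.58.1 (R 4.3.3) over 17111 genes with a mean of at least 10, with 4 group means over all 12 mice and an intensity trend. P-values are two-sided and adjusted over all genes tested (Benjamini-Hochberg), and the interaction used the adjusted p alone. Fold changes are on the log2(value + pseudocount) scale, with a pseudocount of 1. The test was checked on simulated data. With 3 mice against 3, an exact permutation test cannot pass the threshold and none was run.

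Positions and lengths are those of GENCODE M21, and promoters those of RefSeq. The 9 genes, the pathway and marker lists and the alternatives were chosen with earlier results of these data known. Genes named are the 9 genes, the 5 highest and 5 lowest in correlation with Git1, genes within 500 kb of Git1, and from each list any gene called, otherwise the 2 with the smallest p in co-treated mice. The genes of 1 of the 7 pathway lists are not reported here. Ankrd13a and Daglb are named as genes that overlap Git2 and Rac1. Alternatives were other pseudocounts, filters and normalizations, no trend, only the groups compared, sample weights, a replicate block, no fold threshold and leaving out each mouse.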

Additional observations from a re-analysis of the deposited data

Results flagged for a closer look

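Git2 was marked because every CD mouse lay below the WT mean in vehicle-treated mice and above it in co-treated mice. Its mean was lower by a change of -11.9% in VEH-CD against VEH-WT and higher by 4.6% in VERCUR-CD against VERCUR-WT. Likewise every co-treated mouse lay below the mean of vehicle-treated mice in WT, with a change of -11.9%, and above it in CD, with a change of 4.68%. Both pairs of values rest on the same 12 mice and on the 3 VEH-WT mice, the highest of the 12. The limma interaction, which tests the difference itself, was 0.25 ± 0.09 on the log2 scale with an adjusted p of 0.816 and did not pass the threshold.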

How the results depend on the processing

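The log2 difference of Git1 between VERCUR-CD and VERCUR-WT lay between 0.461 and 0.496 over the other ways of processing (limma, adjusted p from 1.01e-05 to 0.0706) and between 0.425 and 0.495 when each mouse was left out (adjusted p from 0.00182 to 0.0164). It lost its call in a fit of only the groups compared (0.462), where 0 of the 9 genes were called and 6 mice gave the spread. The count of called genes stayed at 1 or at 0, as in the main comparisons, under every other alternative and without any single mouse. In vehicle-treated mice the described value of Git1 ran from 0.505 to 0.515, and from 0.486 to 0.544 with each mouse left out.

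Of 651 values recomputed under alternatives other than leaving out a mouse, 636 kept direction and side of the threshold, and 13 turned direction, all of them near 0 and not called; the cause was not tested. Under quantile normalization these were Rac1 at 0.025 in VEH-CD against VEH-WT, Pak1 at -0.003 in VERCUR-CD against VERCUR-WT, Git1 at -0.009 in VERCUR-WT against VEH-WT, Pak2 at 0.003 in VERCUR-CD against VEH-WT, and the interactions of Arhgef7 at -0.019 and Rac1 at -0.012. Under sample quality weights they were Pak1 at -0.01 and Pak2 at -0.045 in VERCUR-CD against VERCUR-WT, Rac3 at 0.024 in VERCUR-CD against VEH-CD, Git1 at -0.004 and Pak3 at -0.001 in VERCUR-WT against VEH-WT, Arhgef6 at 0.088 in VERCUR-CD against VEH-WT, and the interaction of Arhgef7 at -0.015. The same weights brought the adjusted p of VERCUR-CD against VEH-CD under 0.05 in limma for Arhgef6 (0.0159), Git2 (0.0408) and Pak3 (0.045), of which Arhgef6 at 0.277, Git2 at 0.123 and Pak3 at 0.133 on the log2 scale stayed under the fold threshold.

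Leaving out a mouse turned 39 of 732 values, none of them called. In VEH-CD against VEH-WT these were in Rac1 (-0.021 to 0.011). In VERCUR-CD against VERCUR-WT they were in Pak1 (-0.054 to 0.043), Pak2 (-0.041 to 0.091), Pak3 (-0.027 to 0.132), Rac1 (-0.014 to 0.038) and Rac3 (-0.127 to 0.017). In VERCUR-CD against VEH-CD they were in Arhgef7 (-0.091 to 0.04) and Rac3 (-0.03 to 0.031). In VERCUR-WT against VEH-WT they were in Git1 (-0.029 to 0.041), Arhgef7 (-0.112 to 0.004), Pak3 (-0.08 to 0.049) and Rac1 (-0.007 to 0.024). In VERCUR-CD against VEH-WT they were in Arhgef6 (-0.084 to 0.091), Pak2 (-0.107 to 0.038), Pak3 (-0.023 to 0.121) and Rac1 (-0.004 to 0.048), and in the interaction in Arhgef7 (-0.041 to 0.091) and Rac1 (-0.01 to 0.042).

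With the replicate number as a replicate block, Git1 in co-treated mice was at 0.462 (limma, adjusted p = 0.00413), and the block changed no call. Deviations from the group means correlated between -0.347 and 0.267 for mice with the same number and between -0.235 and 0.325 for others. Arhgef7 was highest in the mouse numbered 2 in every group. The block lowered the SE of its vehicle comparison from 0.086 to 0.055. Whether the numbers pair the mice was not tested. The 2 planned count tests on recovered whole reads were not run. Centring on the median ratio moved no library by more than 0.003 on the log2 scale. With 3 mice a group, differences such as that of Arhgef6 have 95% intervals that reach from -0.10 to 0.34.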
